A study of Rattus norvegicus with 6 samples.

Results

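The messenger RNAs of the cytosolic ribosomal proteins were examined in rat fibroblasts with and without a transforming HRAS gene, and with and without the DNA methyltransferase inhibitor 5-aza-2'-deoxycytidine. The genes were chosen by symbol alone, from Rpl or Rps followed by a digit, Rpsa and the stalk protein symbols Rplp0, Rplp1 and Rplp2, with the S6 kinase genes left out. A probe set, a group of oligonucleotides on the array that reports a single transcript, had to list exactly 1 such gene. These conditions gave 60 probe sets for 42 genes, of 2890 genes that the array table listed alone on a probe set. Where a gene had several probe sets, the one with the highest mean signal over the 6 arrays stood for it. Of the 42 genes, 25 encode large subunit proteins, 11 small subunit proteins and 1 the base of the stalk (Rplp0), and 5 carry symbols of paralogues or pseudogenes (Rps27l, Rpl36al1, Rpl19l4, Rpl3l and Rps4x-ps9). A further 36 probe sets listed several ribosomal protein genes or their pseudogenes together and were kept apart.

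208F cells are immortal rat fibroblasts that are not transformed, and FE8 cells were derived from them by transformation with an HRAS oncogene. There were 1 array of untreated 208F, 1 of untreated FE8, and 2 arrays of each line after 96 h in 0.3 µM 5-aza-2'-deoxycytidine. The cytidine analogue is built into DNA and traps the methyltransferases, so that methylation is lost as cells divide. The labels name a single transformed line, Hras itself was not among the measured genes, and the labels do not state whether the paired treated arrays came from separate cultures, so p-values measure the spread between these arrays, which may be technical.

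Each ribosome carries nearly all of these proteins in a single copy, and the cell makes them in matched amounts together with ribosomal RNA. Their genes are highly transcribed in growing cells, and their messenger RNAs typically begin with a C followed by a run of pyrimidines, the terminal oligopyrimidine tract, through which growth signals of the mTOR pathway regulate translation. Some of the proteins have roles outside the ribosome: Rpl5 and Rpl11 bind Mdm2 and so restrain the degradation of p53, and Rpsa is also known as a laminin receptor. Genomes of mammals hold many processed copies of ribosomal protein genes, which makes probe sets that recognise several loci common.

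The start sites were inspected for that tract because it is the sequence feature that these genes are known to share. RefSeq sequences around the annotated transcription start (rat assembly GRCr8) were found for 37 of the 42 genes. A C followed by 4 or more C or T bases on the sense strand, with the C within 5 bases of the annotated start, was present in 18 of the 37 (48.6%), beside 17% of all 27457 promoters of the same table searched in the same way. The runs were 5 to 21 bases long. The 30 bases from 10 before the start are given for 4 of the genes that passed the test of the averaged drug effect (Rps10, Rps9, Rpl17, Rpsa), for the gene with the steadiest signal (Rpl35a), for Rpl31 with the C exactly at the start and for Rps23 with the longest run; capitals mark the tract and each line is 5′ to 3′.
Rps10 (chr20:5700725-5700754, minus strand): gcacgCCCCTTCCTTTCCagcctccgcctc
Rps9 (chr1:74430418-74430447, minus strand): cggccacgtttCTCTTTgtcacgggcctga
Rpl17 (chr18:70856266-70856295, plus strand): ttcgcgCTTCCTCTTCCTgttagcggccag
Rpsa (chr8:128728869-128728898, plus strand): ccgcgctaccctggaacgggtccgtacggc
Rpl35a (chr11:81235002-81235031, minus strand): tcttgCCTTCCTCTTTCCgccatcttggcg
Rpl31 (chr9:49143101-49143130, plus strand): atccctcgcgCCTTTCCTTTCCaacttggg
Rps23 (chr2:23814507-23814536, plus strand): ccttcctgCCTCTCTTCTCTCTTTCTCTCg
The window of Rpsa held no such run, which says only that these letters do not occur around the annotated start. The match is a property of the annotated sequence and was not measured on the array.

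Median signals of the 4818 tested probe sets lay between 354 and 422 on the 6 arrays. Both untreated arrays were run on the same day on chips of lot 1, and 208F treated replicate 1 on another day on lot 2. The remaining 3 treated arrays were run on a different day again on lot 3, so drug and run cannot be told apart. The spread behind the p-values comes from the treated pairs alone. The 208F pair was split over lots 2 and 3 and the FE8 pair lay within lot 3. This spread thus mixes variation between runs and within a run. The same spread is applied to the untreated arrays, which shared a lot and a day. The ratio of the 5′ to the 3′ Actb probe sets, a sign of RNA or cRNA integrity, was 0.824 in untreated 208F and 0.351 in untreated FE8. In the treated arrays it lay between 0.384 and 0.529. The same ratio for Gapdh was 0.916 in untreated 208F, 0.691 in untreated FE8 and between 1.01 and 1.13 in the treated arrays. By Gapdh each treated array thus lay above both untreated ones, which was not so by Actb. Fibroblast markers (10 of 11 on the list measured) summed to 114545 in untreated 208F, 61982 in untreated FE8 and 49562 to 96612 in the treated arrays. Epithelial markers (3 of 9 measured) summed to 145 and 168 in the untreated and 3039 to 4418 in the treated arrays, almost all of it Krt8. Muscle markers (3 of 6) summed to 386 and 35 in untreated 208F and FE8 and to 412 to 2587 in the treated arrays, endothelial markers (2 of 7) to 197 to 542 and the only measured blood marker (of 10) to 160 to 446. The part of these differences in the ribosomal protein values was not tested.

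The ribosomal protein messenger RNAs were among the bright signals of both lines and differed little between arrays. Of the 42 genes, 36 had a mean signal of at least 2000 (from 4011 upwards) and 6 lay between 217 and 1156. Of those 6, Rps24, Rpl17, Rpl30 and Rpl5 are also listed on brighter probe sets with several loci. Their mean signals there were 17267 for Rps24, 12253 and 14050 for Rpl17, 4617 for Rpl30 and 14198 for Rpl5. The 42 chosen probe sets held 7.76% of the summed signal in untreated 208F and 7.90% in untreated FE8. They held 7.37% and 6.49% in the treated 208F arrays and 7.29% and 7.21% in the treated FE8 arrays. The share was lower in each of the 4 treated arrays than in either untreated one. Signals are relative to the other transcripts on the same array, so fewer cells of a type and less RNA per cell cannot be told apart. Brightness also depends on the probes, and no gene's level was set against another's.

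**Figure D1:**
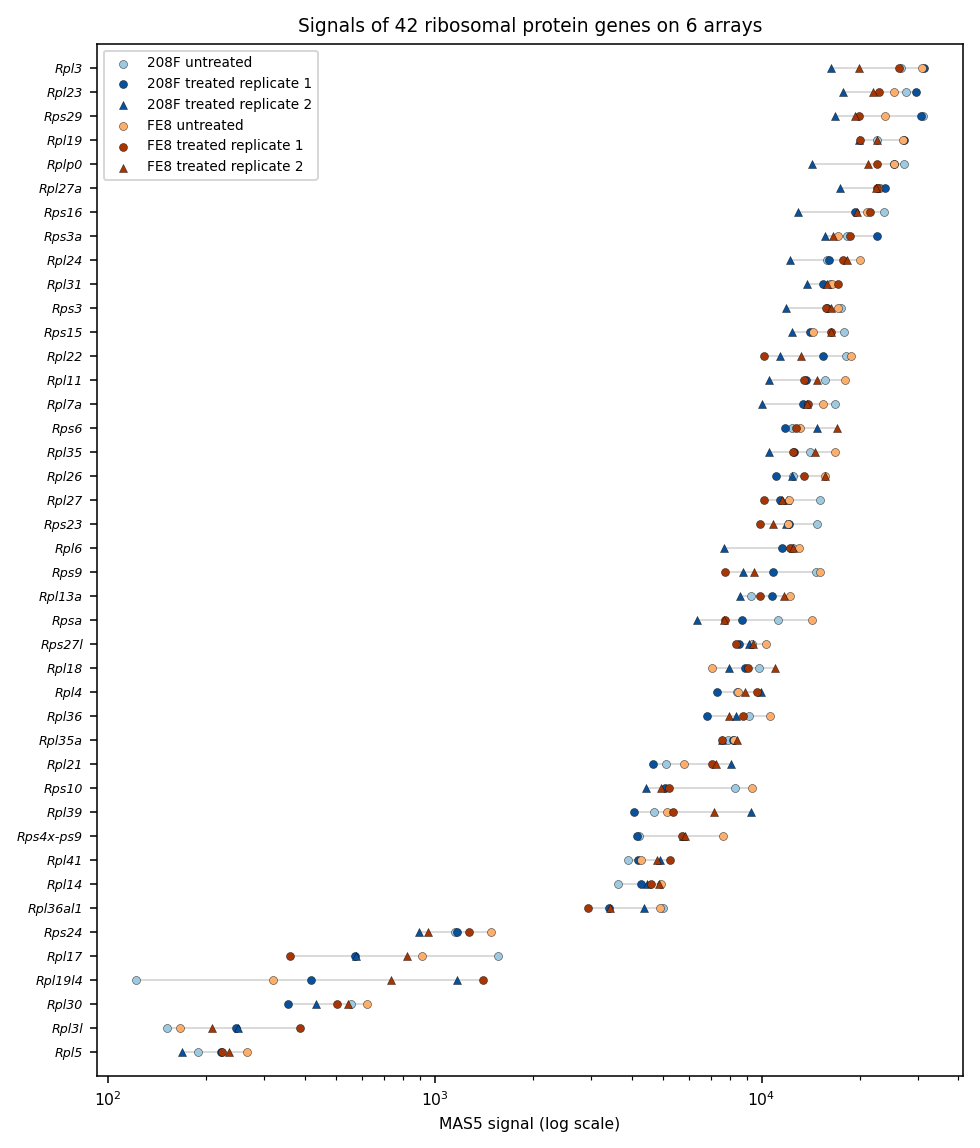
MAS5 signal (log axis) of each of the 42 ribosomal protein genes on the 6 arrays, with genes ordered by mean signal, colours for the 4 groups, circles for replicate 1 and triangles for replicate 2. The points of most genes lie close together, and those of Rpl19l4 (standard deviation 1.12 on the log2 scale) and Rpl17 (0.67) are the most spread.

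On the log2(signal + 64) scale used from here on, the standard deviation over the 6 arrays had a median of 0.25 among the 42 genes. It was 0.37 over all tested probe sets and 0.32 over the 202 other probe sets with a mean signal of at least 5000, a class chosen after the values were seen. Rpl35a, a large subunit protein, was the steadiest of the 42, with a standard deviation of 0.06. Untreated 208F gave a signal of 7904 and treated 208F gave 8170 and 7569, while FE8 gave 8249 untreated and 7590 and 8383 treated. The groups overlapped, and no array stood apart. Rpl31 (0.11), also of the large subunit, and Rps27l (0.11), a paralogue of Rps27 known in human cells as a target of p53, came next. For Rps27l, 208F gave 9313 untreated and 8542 and 9178 treated, and FE8 gave 10308 untreated and 8352 and 9390 treated. At the other end stood Rpl19l4 (1.12), an Rpl19-like locus, and Rpl17 (0.67), a large subunit protein at the exit of the nascent chain, followed by Rps10 (0.44), Rpl39 (0.43) and Rpsa (0.42). In all, 9 of the 42 genes had a standard deviation above the median of all probe sets.

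Between the untreated lines, which asks how HRAS-transformed cells differ from their parent, no ribosomal protein gene passed the test. The 2-sided moderated test of limma, with p-values adjusted by Benjamini-Hochberg across all 4818 tested probe sets, called 0 of 42 at an adjusted p under 0.05, beside 5.92% of all tested probe sets. At an unadjusted p under 0.05 it named 1 of 42 beside 15.7% of all. The difference, FE8 minus 208F, was positive for 28 genes and negative for 14, with a median of 0.09 beside 0.02 over all probe sets and -0.02 over the other bright ones. The single unadjusted call was Rps4x-ps9, a processed copy annotated as a pseudogene of the small subunit gene Rps4x, at 4202 in untreated 208F and 7629 in untreated FE8 (log2 difference 0.85 ± 0.33, SE; adjusted p = 0.217). Its treated arrays read 4166 and 5740 in 208F and 5689 and 5812 in FE8, which all lie between the untreated values or just under the lower one. The gene from which it is named appears on brighter probe sets that list several loci. Their differences between the untreated lines were 0.08 and 0.28, and neither passed. Each untreated group is 1 array, assumed to vary like the treated pairs, and the 95% interval of the difference lay within 1 log2 unit of 0 for 18 of the 42 genes. Leaving out either of the 208F treated arrays changes only the estimated spread, and the difference of Rps4x-ps9 stayed at 0.85. Whether it passed depended on that estimate.

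The remaining untreated differences ran from -0.74 ± 0.46 for Rpl17 (1566 in 208F, 913 in FE8) to 1.05 ± 0.60 for Rpl19l4 (122 and 320). Only Rpl19l4 differed by more than 1 log2 unit (1 of 42 beside 12.7% of all probe sets), and neither value passed the test (adjusted p = 0.549 and 0.493). Rpl18, a large subunit protein, stood at -0.48 ± 0.33, with 9848 in 208F and 7058 in FE8. Rps29, a small zinc-binding protein of the small subunit, stood at -0.38 ± 0.44, while a second probe set listing it alone stood at 0.09. Rpl14 and Rpl13a of the large subunit stood at 0.43 ± 0.30 and 0.39 ± 0.34. Large subunit genes had a median of 0.13 (19 of 25 positive) and small subunit genes of -0.03 (5 of 11 positive).

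Between the treated lines, the comparison with replicates on both sides, the ribosomal protein genes were again without a call. The test named 0 of 42 beside 7.08% of all probe sets, and 0 of 42 beside 17.1% at an unadjusted p under 0.05. The differences, FE8 minus 208F, lay between -0.28 ± 0.23 (Rpl36al1) and 0.49 ± 0.42 (Rpl19l4), with a median of 0.14 beside -0.00026 over all probe sets. For 41 of the 42 genes the 95% interval lay within 1 log2 unit of 0, the exception being Rpl19l4 (-0.44 to 1.43). Both FE8 arrays were above both 208F arrays for 11 genes beside 20.7% of all probe sets, and below both for 1 gene beside 21.5%. The smallest adjusted p was that of Rpl6, a large subunit protein, with 11521 and 7666 in treated 208F and 12178 and 12479 in treated FE8 (0.39 ± 0.26; adjusted p = 0.576). The second 208F array lay well below the other 3. Within lot 3, that is without 208F treated replicate 1, limma called 4 genes higher in FE8 (Rpl6, Rps16, Rplp0 and Rpl24) beside 10.2% of all probe sets. Without replicate 2 in its place it also called 4 beside 11% of all, of which Rpl21, Rpl39 and Rpl19l4 were higher and Rps29 lower, so the named genes depended on which 208F array was kept.

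**Figure D2:**
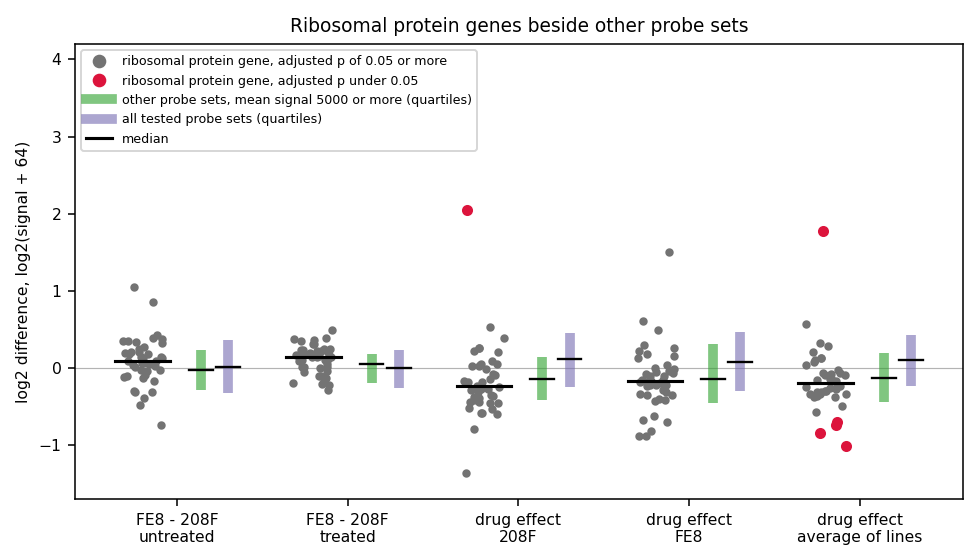
Log2 difference of each ribosomal protein gene (points, red where the adjusted p was under 0.05) in 5 comparisons, with the quartiles (bars) and medians (lines) of all tested probe sets and of other probe sets with a mean signal of at least 5000. Medians of the genes were 0.09 and 0.14 between the lines and -0.23, -0.17 and -0.19 for the drug, where the other bright probe sets stood at -0.15, -0.13 and -0.13.

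In 208F, treated minus untreated, 1 of the 42 genes passed the test beside 5.19% of all probe sets, namely Rpl19l4. It read 122 in the untreated array and 418 and 1169 in the treated ones, and rose by 2.05 ± 0.52 (adjusted p = 0.0466). At an unadjusted p under 0.05 there were 3 of 42 beside 17.7% of all, the others being Rpl17 (-1.36 ± 0.40; adjusted p = 0.0832) and Rps10 (-0.79 ± 0.27; adjusted p = 0.134). Rps10 lies at the entry of the messenger RNA channel of the small subunit. The difference was negative for 29 genes and positive for 13, with a median of -0.23 beside 0.11 over all probe sets and -0.15 over the other bright ones. Both treated arrays were below the untreated one for 23 genes beside 29.9% of all probe sets, and above it for 4 beside 44.1%. Of the 202 other bright probe sets, 97 were below and 47 above in this way. The call of Rpl19l4 was lost under quantile normalization and without either FE8 treated array. It was also lost with 256 in place of 64 added to the signal and with a mean signal of at least 200 required. A fit without the trend of limma lost it too, as did one with the replicate number as a block. Without 208F treated replicate 1 the test called 15 of the 42 genes, 12 of them lower, beside 13.8% of all probe sets, and without replicate 2 it called 3 beside 8.63%.

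In FE8, treated minus untreated, none of the 42 genes passed beside 8.16% of all probe sets, and 5 of 42 had an unadjusted p under 0.05 beside 21.3% of all. These were Rps10 (-0.88 ± 0.27; adjusted p = 0.0725), Rpsa (-0.88 ± 0.30; adjusted p = 0.101), Rps9 (-0.81 ± 0.30; adjusted p = 0.138), Rpl36al1 (-0.62 ± 0.28; adjusted p = 0.233) and Rpl19l4 (1.50 ± 0.52; adjusted p = 0.112). Rpl22, a large subunit protein with a close paralogue in mammals, read 18738 in untreated and 10161 and 13182 in treated FE8 (-0.69 ± 0.33; adjusted p = 0.253). Rpl18 read 7058 in untreated and 9078 and 10973 in treated FE8 (0.50 ± 0.29; adjusted p = 0.364). The difference was negative for 31 genes and positive for 11, with a median of -0.17 beside 0.08 over all probe sets and -0.13 over the other bright ones. Both treated arrays were below the untreated one for 28 genes beside 34.1% of all probe sets, and above it for 8 beside 42.9%. Of the 202 other bright probe sets, 107 were below and 76 above in this way. Without either of the 208F treated arrays, which enter this comparison only through the spread, 6 genes passed beside 16.3% (without replicate 1) and 16.2% of all probe sets.

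The size of these medians depended on the scaling. After quantile normalization, which forces the same distribution of signals on each array, the median of the genes was -0.11 in 208F and -0.0007 in FE8, and relative to the median of all probe sets it was -0.07 in 208F and 0.04 in FE8, against -0.35 and -0.25 as deposited. The FE8 value relative to all probe sets thus changed sign, and the other medians stayed negative. Centring each array on its median moved the median of all probe sets from 0.11 to -0.03 in 208F and from 0.08 to -0.04 in FE8, and by construction leaves the values relative to it as they were.

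The drug effect averaged over both lines, a comparison added after the values of each line had been seen, sets the 4 treated against the 2 untreated arrays. It called 5 of the 42 genes beside 15.6% of all probe sets, 4 lower (6.5% of all) and 1 higher (9.07% of all), and 7 of 42 beside 28.7% at an unadjusted p under 0.05. A share of 5 in 42 is near the background, and the count is no result about ribosomal proteins as a group. The median was -0.19 beside 0.11 over all probe sets and -0.13 over the other bright ones. After quantile normalization it was -0.041 beside -0.036 over all probe sets, so this gap too depended on the scaling. For 35 of the 42 genes the 95% interval lay within 1 log2 unit of 0. All 4 treated arrays were below both untreated ones for 14 genes (33.3%) beside 12.5% of all probe sets and 29.7% of the other bright ones, and above both for 2 genes (Rpl19l4 and Rpl3l, the striated muscle paralogue of Rpl3) beside 18.6%.

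**Figure D3:**
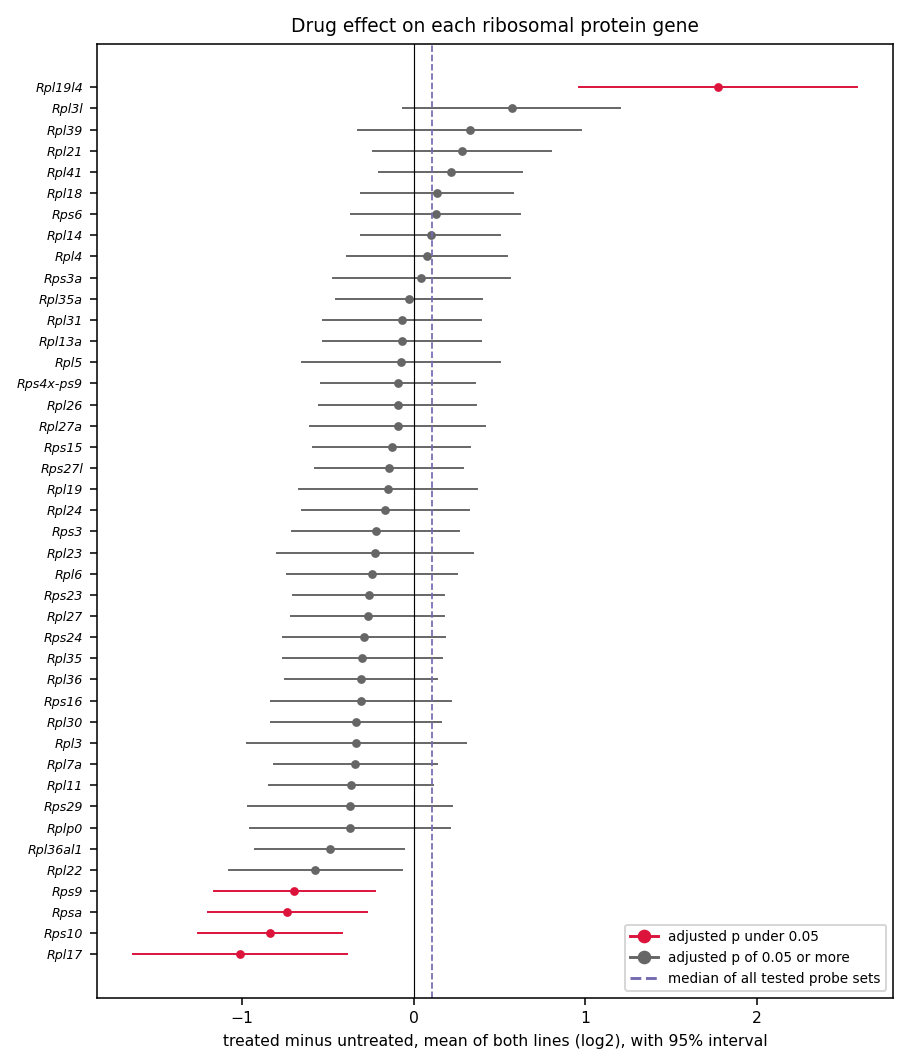
Treated minus untreated log2 difference, averaged over both lines, for each of the 42 genes with its 95% interval from the limma fit, red where the adjusted p was under 0.05. The estimates run from -1.01 (Rpl17) to 1.77 (Rpl19l4), and the dashed line marks the median of all tested probe sets, 0.11.

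Among the small subunit genes, Rps10 was the clearest of those that fell. 208F gave a signal of 8262 untreated and 5075 and 4428 treated, and FE8 gave 9372 untreated and 5192 and 4930 treated. Every treated array lay below every untreated one, with no overlap in either line. Averaged over the lines it fell by 0.84 ± 0.19 on the log2 scale (limma adjusted p = 0.0128), which is 0.56 times the untreated level.

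Rpsa, the small subunit protein also known as a laminin receptor, read 11213 in untreated and 8718 and 6323 in treated 208F, and 14308 in untreated and 7749 and 7691 in treated FE8. The groups did not overlap, and the treated FE8 arrays were close to each other. The averaged difference was -0.74 ± 0.21 (adjusted p = 0.0383). A second probe set drawn from the same transcript sequence gave -0.72 (adjusted p = 0.0342). Rps9, which lies along the messenger RNA path of the small subunit, read 14617 in untreated and 10865 and 8754 in treated 208F, and 15120 in untreated and 7746 and 9511 in treated FE8. It fell by 0.70 ± 0.21 (adjusted p = 0.0476), again with every treated array below both untreated ones.

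Rpl17 of the large subunit read 1566 in untreated and 569 and 573 in treated 208F, and 913 in untreated and 361 and 824 in treated FE8. The treated 208F arrays were nearly equal, while the second treated FE8 array was near its untreated one. The averaged difference was -1.01 ± 0.28 (adjusted p = 0.0343). The probe set is a dim one, and Rpl17 is also listed on a pair of brighter probe sets with several loci, whose averaged differences were 0.00 and -0.05 and did not pass.

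Rpl19l4 read 122 in untreated and 418 and 1169 in treated 208F, and 320 in untreated and 1404 and 737 in treated FE8. Both treated pairs were above their untreated array but differed within the pair by more than the untreated arrays did in signal. The Rpl19l4 probe set was dim, with a mean signal of 695, beside 801 for the dim Rpl17 probe set. It also carries the suffix of probe sets shared between transcripts. Whether its signal came from Rpl19l4 alone was not tested. The averaged difference was 1.77 ± 0.37 (adjusted p = 0.00811). The gene it is named after, Rpl19, read 22471 in untreated and 27181 and 19861 in treated 208F, and 27163 in untreated and 20026 and 22590 in treated FE8, so its groups overlapped in 208F and not in FE8.

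These 5 calls depended on single arrays and on the processing. Without FE8 treated replicate 1 none of the 42 genes passed in the averaged effect beside 5.48% of all probe sets, without FE8 treated replicate 2 there were 2 beside 6.6%, without 208F treated replicate 1 there were 17 beside 24.1% of all probe sets, and without replicate 2 there were 7 beside 21.7%. Quantile normalization ended the calls of Rpsa, Rps9 and Rpl17, median centring those of Rpsa and Rps9, and no trend those of all 3, while Rps10 and Rpl19l4 passed under each of these. Rps9 passed in 5 and Rpsa in 7 of 13 settings, Rpl17 in 9 of 13, Rps10 in 9 of 12 and Rpl19l4 in 10 of 12. The estimates of the 5 genes kept their sign in every setting tried, from -0.97 to -0.67 for Rps10, -0.87 to -0.51 for Rpsa, -0.83 to -0.48 for Rps9, -1.28 to -0.75 for Rpl17 and 1.27 to 2.11 for Rpl19l4.

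**Figure D4:**
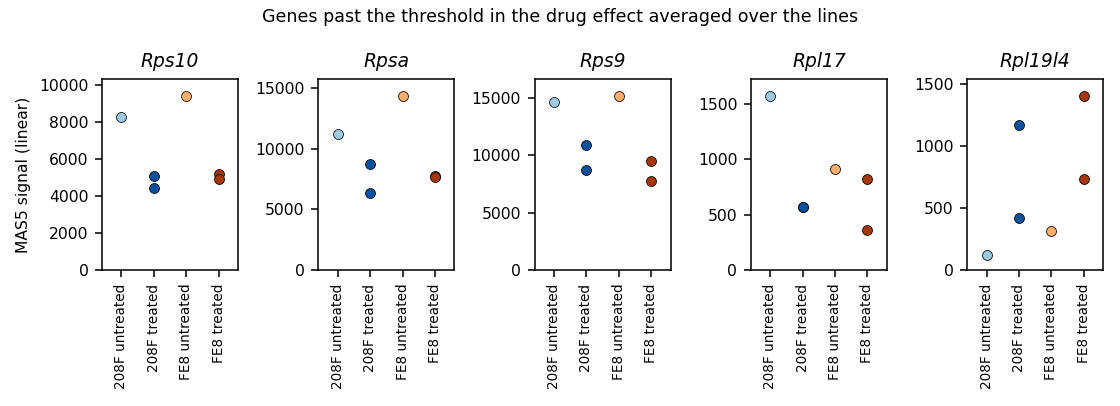
MAS5 signal (linear axis from 0) of the 5 genes past the threshold in the averaged drug effect, a point per array in each of the 4 groups. Rps10, Rpsa and Rps9 lie lower in all 4 treated arrays than in both untreated arrays, and Rpl19l4 lies higher.

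Of the genes that did not pass, Rpl22 and Rpl36al1 had the smallest adjusted p. Rpl22 stood at -0.57 ± 0.23 (adjusted p = 0.126), with all 4 treated arrays (10161 to 15430) below both untreated ones (18172 and 18738). Rpl36al1, a paralogue symbol of the Rpl36a family, stood at -0.49 ± 0.20 (adjusted p = 0.129), also without overlap (2938 to 4381 against 4904 and 4995). Rplp0, on which the stalk that recruits elongation factors is built, read 27320 and 25483 untreated, 25332 and 14266 in treated 208F, and 22543 and 21124 in treated FE8 (-0.37 ± 0.27; adjusted p = 0.397). Rpl39, a very short large subunit protein of the exit tunnel, stood at 0.33 ± 0.30 (adjusted p = 0.515), with 4685 in untreated and 4068 and 9257 in treated 208F, and 5138 in untreated and 5348 and 7151 in treated FE8. Its treated 208F arrays lay on either side of the untreated one. Rpl41, the shortest protein of the ribosome, stood at 0.21 ± 0.19, and Rpl23, Rpl27, Rpl7a and Rpl30 of the large subunit at -0.23 ± 0.26, -0.27 ± 0.20, -0.34 ± 0.22 and -0.33 ± 0.23. None of these 5 passed in any comparison.

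The bright genes separated the treated 208F arrays from each other. All 12 ribosomal protein genes with a mean signal of at least 15000 were lower in 208F treated replicate 2 than in replicate 1, with a median difference of -0.49. The other 36 probe sets of that brightness behaved in the same way, with 34 of 36 lower and a median of -0.50. Here and below, the others leave out the further ribosomal protein probe sets, including those that list several loci. Between 10000 and 15000 the medians were -0.31 for the ribosomal protein genes (8 of 11 lower) and -0.40 for the others (40 of 46 lower). Between 2000 and 10000 the signs differed, with a median of 0.22 for the ribosomal protein genes (4 of 13 lower) and -0.10 for the others (318 of 538 lower). Under 2000 the medians were 0.01 and 0.03. Of the 42 genes, 22 had their lowest value of the 6 arrays in this replicate. Rps29, for example, read 31159 in untreated 208F and 30778 in replicate 1 but 16787 in replicate 2. In FE8 it read 23904 untreated and 19846 and 19298 treated. A second probe set that lists Rps29 alone read 19680 in untreated 208F, 26080 in replicate 1 and 19447 in replicate 2. Its averaged drug effect was 0.13, beside -0.37 for the chosen Rps29 probe set. The highest signal anywhere on 208F treated replicate 2 was 25974, beside 31159 to 47137 on the other arrays. In the treated FE8 pair the 12 brightest genes differed by a median of -0.05 and the other 36 probe sets by 0.07. Between 10000 and 15000 the FE8 medians were 0.21 for the ribosomal protein genes (1 of 11 lower) and 0.04 for the others, and between 2000 and 10000 they were 0.04 and 0.08.

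**Figure D5:**
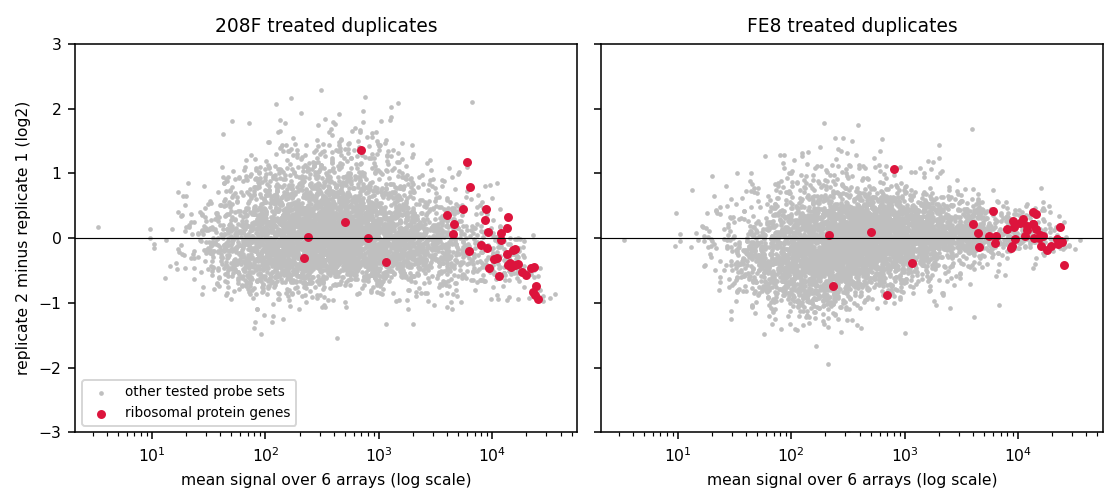
Replicate 2 minus replicate 1 (log2) of the treated arrays of each line against mean signal over 6 arrays (log axis), with the 42 genes in red and other tested probe sets in grey. At a mean signal of at least 15000 the genes have medians of -0.49 in 208F and -0.05 in FE8. The other probe sets, with further ribosomal protein probe sets left out of the medians, have -0.50 and 0.07. In 208F 1 grey point and in FE8 3 lie beyond the axis limits of 3 log2 units.

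No ribosomal protein gene differed between the lines in its drug effect. The test of the difference (effect in FE8 minus effect in 208F) called 0 of 42 beside 0.0623% of all probe sets, and 0 of 42 beside 7.56% at an unadjusted p under 0.05. Estimates ran from -0.62 ± 0.41 for Rps4x-ps9 to 0.72 ± 0.40 for Rpl18, with Rps15 of the small subunit at 0.62 ± 0.42, a median of 0.02 and a smallest adjusted p of 0.816. Rps10 and Rpsa, for which the effects in each line are given above, gave differences of -0.09 and -0.29 between the effects, inside their errors. The interval lay within 1 log2 unit of 0 for only 9 of the 42 genes, so differences of that size were not excluded for most of them.

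Probe sets of the same gene did not always move together. For 15 genes, 18 further probe sets listed that gene alone. Their sign matched that of the chosen probe set in 14 of 18 for the untreated lines, 15 of 18 for the treated lines, 10 of 18 for the drug in 208F and 11 of 18 for the drug in FE8. In the averaged effect 2 of the 18 passed, that of Rpsa and 1 of Rpl26, a large subunit protein. The second Rpl26 probe set read 6653 in untreated and 12633 and 10715 in treated 208F, and 6628 in untreated and 11156 and 13239 in treated FE8. It rose by 0.83 (adjusted p = 0.0185), while the chosen Rpl26 probe set stood at -0.09, its treated arrays (11046 to 15665) spanning the untreated ones (12441 and 15587). For Rpl21 of the large subunit, the drug effect in FE8 was 0.30 with the chosen probe set. With the further Rpl21 probe sets, of mean signal 4491, 824 and 604, it was -0.39, -0.75 and -0.15. In 208F the chosen probe set gave 0.26 and the further ones -0.24, -0.39 and -0.32, in the same order.

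The 36 probe sets that list several ribosomal protein loci, were a set chosen after the values were seen. None passed in the comparisons of the lines or in the drug effect in 208F, and 1 of 36 passed in FE8 beside 8.16% of all probe sets, a probe set of the large subunit gene Rpl28 (-1.32 ± 0.28; adjusted p = 0.0152). In the averaged effect 4 of 36 were lower beside 6.5% of all, those of Rpl28 (-1.01; adjusted p = 0.00572), Rps13 (-0.86; adjusted p = 0.0149), Rpl10 (-0.86; adjusted p = 0.0155) and Rpl32 (-0.72; adjusted p = 0.0427). All 4 treated arrays were below both untreated ones for 15 of the 36 (41.7%), beside 12.5% of all probe sets and 29.7% of the other bright ones.

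The genes with a pyrimidine tract at the start were set beside those without. In the averaged drug effect the 18 with a tract had a median of -0.19 and the 19 without had -0.17. Between the untreated lines the medians were 0.03 and 0.15, and between the treated lines 0.06 and 0.18. These medians are a description, and whether genes with and without a tract differ was not tested.

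Other parts of the translation machinery were counted from lists of symbols. Of 14 mitochondrial ribosomal protein genes, which serve the ribosomes inside mitochondria, none passed in either line comparison or in either line's drug effect, and 2 of 14 fell in the averaged effect beside 6.5% of all probe sets, Mrpl23 (-0.95 ± 0.23; adjusted p = 0.0181) and Mrps6 (-0.82 ± 0.24; adjusted p = 0.0399). Of 25 initiation and elongation factor genes, matched by symbol and so including kinases of the initiation factor eIF2, only Eif2ak2 passed (1 of 25 in FE8 beside 8.16% of all), the interferon-inducible kinase that senses double-stranded RNA. It read 663 in untreated and 632 and 1634 in treated 208F, and 347 in untreated and 1586 and 2157 in treated FE8 (2.22 ± 0.45 in FE8; adjusted p = 0.0117). Of 9 measured genes of ribosome biogenesis, 2 passed between the untreated lines, beside 5.92% of all probe sets. Gnl3, which encodes nucleostemin, was higher in FE8 (731 in 208F, 2016 in FE8; 1.39 ± 0.34; adjusted p = 0.0323), and Ubtf, a transcription factor of ribosomal RNA genes, was lower (818 and 223; -1.62 ± 0.38; adjusted p = 0.0298). Neither passed between the treated lines. Polr1d, a subunit shared by RNA polymerases I and III, fell in the averaged drug effect (-0.69 ± 0.19; adjusted p = 0.0352). The only S6 kinase gene measured, Rps6kb1, passed in no comparison.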

How the data were processed

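Signal intensity per probe set was deposited by the authors on a linear scale, made with MAS5 per the submitters' processing notes, which give no version or settings. The table held 4847 probe sets, a part of the array kept by a filter not given in the sources used here; 29 controls were left out and 4818 tested. Probe sets were named through gene identifiers from RefSeq (GRCr8) for 41 of the 42 genes, and Rps9 by the symbol of the platform annotation alone. Values were transformed as log2(signal + 64), 64 being the 10th percentile, with no further scaling. limma 3.58.1 in R 4.3.3 (lmFit, eBayes with trend, 2-sided) was fitted to 4 group means over all 6 arrays, with 2 residual and 9.02 prior degrees of freedom, and p-values were adjusted by Benjamini-Hochberg over 4818 probe sets at a threshold of 0.05. Values after ± are standard errors from this fit, in which a group of 1 array is assumed to vary like the treated pairs. Depth has no equivalent here, and the number of arrays limits the precision. The procedure was tested on simulated data.

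The genes, lists and tests were chosen with earlier results of these data known. Genes named are those past the threshold in any comparison, the 5 with the largest positive and negative differences in each, the 5 with the highest and lowest mean signal, and those whose probe sets oppose each other by over 1 log2 unit; others given for steadiness or for the sequences were chosen after their values were seen. The several-locus probe sets were restricted to those whose symbols are all ribosomal protein genes or uncharacterised loci. Alternatives were another pseudocount, quantile normalization, median centring, a filter on dim probe sets, leaving out shared-suffix probe sets, the mean over a gene's probe sets, no trend, each treated array left out, and the replicate number as a block.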

Additional observations from a re-analysis of the deposited data

How the results depend on the processing

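Of 321 alternative values, 221 kept their direction and side of the threshold or moved little, 100 did not, and no called gene changed sign; the cause was not tested, apart from the smaller number of arrays or probe sets that some settings have by construction. Leaving out 1 treated array leaves 1 residual degree of freedom, and the prior degrees of freedom went from 9.02 to infinite (without either 208F array) or to 5.58 and 5.62 (without either FE8 array). With each treated array left out in turn, the number of ribosomal protein genes called ranged from 0 to 1 for the untreated lines, 0 to 4 for the treated lines, 0 to 15 for the drug in 208F, 0 to 6 for the drug in FE8 and 0 to 17 for the averaged drug effect, and stayed at 0 for the difference between the drug effects. Over all probe sets the counts ranged from 109 to 541, 96 to 530, 75 to 663, 76 to 783, 264 to 1161 and 0 to 206 in the same order, beside 285, 341, 250, 393, 750 and 3 with all arrays. The median of the ribosomal protein genes ranged from 0.04 to 0.21 for the treated lines, -0.32 to -0.13 for the drug in 208F, -0.19 to -0.13 in FE8, -0.26 to -0.11 for the average and -0.07 to 0.05 for the difference, and was 0.09 throughout for the untreated lines.

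The call of Rpl19l4 in 208F was lost (0 genes) with a pseudocount of 256, quantile normalization, a mean signal of at least 200, no trend and the replicate block, and its probe set is among the shared-suffix ones. Quantile normalization gave 165 calls over all probe sets in 208F, 258 in FE8 and 0 for the difference. The medians of the ribosomal protein genes were then -0.0007 in FE8 and -0.0413 for the average, where all probe sets stood at -0.0355. In the average, 3 genes passed beside 11.3% of all probe sets. Median centring gave medians of -0.38 in 208F and -0.33 for the average. It called 3 genes in the average beside 14.6% of all probe sets, and 9 probe sets in the difference. Requiring a mean signal of at least 200 gave 3 genes in the average beside 18% of all probe sets, and 0 probe sets in the difference. No trend gave 2 genes in the average beside 13.7% of all, and 0 probe sets in the difference. Without shared-suffix probe sets, 3228 were left to test. The counts over all were then 180 and 226 for the untreated and treated lines, 142 in 208F, 256 in FE8 and 13 for the difference. For the average the count was 448 (13.9%), with 3 ribosomal protein genes among them. The medians of the ribosomal protein genes were -0.0858 in 208F and -0.12 for the difference. The difference gave 10 probe sets with a smaller pseudocount (16), 6 with a larger one (256) and 12 with the mean over a gene's probe sets.

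The replicate number as a block gave 155 calls over all probe sets in 208F and 0 for the difference. In the average it called 1 ribosomal protein gene beside 12.8% of all probe sets. The labels do not say that the numbers pair the lines, and with 2 pairs (r = 0.32 between the lines over all probe sets) the samples share only a number. Signals near 64 carry little information on either side, and no detection call was used here.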
